A study of Homo sapiens with 4 samples.

Results

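RAD21 binding was described at 3 developmental loci of the human genome whose domain boundaries have been linked to disease. Around 9 genes, WNT6, IHH, EPHA4 and PAX3 on chromosome 2, SHH and LMBR1 on chromosome 7, and KCNJ16, KCNJ2 and SOX9 on chromosome 17, an interval was drawn from the first to the last gene of each chromosome and extended by 200 kb at both ends. In the GENCODE version 44 annotation of GRCh38, the WNT6–PAX3 interval spanned chr2:218659805-222498998 (3.84 Mb), the SHH–LMBR1 interval chr7:155599980-157093216 (1.49 Mb) and the KCNJ16–SOX9 interval chr17:69853429-72326416 (2.47 Mb). A peak belonged to an interval when its summit, the position of highest enrichment, lay inside it. These rules gave 74, 48 and 31 peaks, 153 of the 56853 peaks in the list.

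RAD21, a subunit of the cohesin ring, was mapped by ChIP-seq in HCT116, a human colon carcinoma cell line. The study made 4 libraries, each without a replicate. These were RAD21 ChIP of untreated wild-type HCT116 cells, RAD21 ChIP of untreated HCT116_RAD21_AID cells, RAD21 ChIP of HCT116_RAD21_AID cells kept for 6 h with IAA and α-NAA (500 μM each), and Input, sheared chromatin without precipitation, of the auxin-treated cells. HCT116_RAD21_AID is 1 clone in which RAD21 carries the mAID degron and which expresses the OsTIR1 ubiquitin ligase, so that auxins lead to RAD21 degradation. All values are those of peaks called in wild-type cells, which had neither modification and received no auxin. The remaining 3 libraries were not analysed here. A peak list holds no expression values, so the identity of the cells could not be checked against markers, and it shows where RAD21 was enriched but does not measure domain boundaries.

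Cohesin extrudes chromatin loops and tends to stop where CTCF is bound to DNA, and the DNA between such stops forms a domain in which enhancers and promoters meet more often than across its borders. In the WNT6, IHH, EPHA4 and PAX3 region, deletions, inversions and duplications that remove or move a border have been linked to limb malformations. SHH is controlled in the limb bud by an enhancer called ZRS, which lies far from it in an intron of LMBR1, and SOX9 lies at one end of a wide gene desert whose rearrangements have been linked to skeletal and sexual development disorders, some of them with KCNJ2 placed under the control of SOX9 enhancers.

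The sequence at the 3 summits of highest fold enrichment in each interval is shown first, since much of the account of strong binding turns on them. Each run is the GRCh38 sequence of a summit with 50 bases on either side, read 5′ to 3′ on the plus strand. Capitals mark a match to the CTCF consensus, a pattern of 12 bases, on either strand, with at most 1 mismatch. A run without capitals had no such match in this window, which says nothing about other forms of the motif or about CTCF itself. The runs lie at chr2:218847794-218847894 (upstream of WNT6), chr2:219058141-219058241 (intron 1 of IHH), chr2:221573629-221573729 (start of EPHA4), chr7:155797076-155797176 (downstream of SHH), chr7:155815403-155815503 (upstream of SHH), chr7:155805120-155805220 (intron 2 of SHH), chr17:70622530-70622630 and chr17:71473357-71473457 (both between KCNJ2 and SOX9) and chr17:72118707-72118807 (upstream of SOX9).
WNT6 upstream, fold enrichment 73.2, exact match on the minus strand: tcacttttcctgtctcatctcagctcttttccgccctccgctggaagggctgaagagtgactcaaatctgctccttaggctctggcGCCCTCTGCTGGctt
IHH intron 1, fold enrichment 53.5, match with 1 mismatch on the plus strand: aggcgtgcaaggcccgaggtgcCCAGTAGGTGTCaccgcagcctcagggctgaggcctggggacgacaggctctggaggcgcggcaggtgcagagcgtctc
EPHA4 start, fold enrichment 65.0, match with 1 mismatch on the minus strand: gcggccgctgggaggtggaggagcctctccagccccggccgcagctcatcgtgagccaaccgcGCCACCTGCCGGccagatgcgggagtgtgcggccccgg
SHH downstream, fold enrichment 53.9, exact match on the plus strand: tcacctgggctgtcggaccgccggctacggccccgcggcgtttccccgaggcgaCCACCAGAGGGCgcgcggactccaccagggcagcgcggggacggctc
SHH upstream, fold enrichment 51.3, match with 1 mismatch on the plus strand: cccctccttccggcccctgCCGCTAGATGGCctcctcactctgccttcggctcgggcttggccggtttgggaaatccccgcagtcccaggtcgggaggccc
SHH intron 2, fold enrichment 35.8, no match: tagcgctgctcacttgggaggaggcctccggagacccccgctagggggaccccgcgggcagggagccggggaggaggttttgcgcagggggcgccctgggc
KCNJ2 to SOX9, fold enrichment 19.8, match with 1 mismatch on the minus strand: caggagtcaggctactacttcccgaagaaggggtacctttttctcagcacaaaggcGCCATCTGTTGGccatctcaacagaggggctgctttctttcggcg
SOX9 upstream, fold enrichment 17.5, no match: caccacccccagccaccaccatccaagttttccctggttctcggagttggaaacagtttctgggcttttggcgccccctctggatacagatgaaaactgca
KCNJ2 to SOX9, fold enrichment 12.3, no match: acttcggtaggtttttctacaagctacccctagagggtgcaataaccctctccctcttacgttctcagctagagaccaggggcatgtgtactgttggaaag

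A further set shows the summits at both edges of the longest peak-free stretch of KCNJ16–SOX9, and the summit in the LMBR1 intron known for the limb enhancer. They lie at chr17:70168155-70168255, chr17:70552568-70552668 and chr7:156764200-156764300, with the strand and capitals as above.
Stretch across KCNJ2, lower edge, fold enrichment 3.93, no match: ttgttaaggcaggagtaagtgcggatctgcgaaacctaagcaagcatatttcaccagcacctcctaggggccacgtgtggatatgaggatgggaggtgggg
Stretch across KCNJ2, upper edge, fold enrichment 9.45, exact match on the minus strand: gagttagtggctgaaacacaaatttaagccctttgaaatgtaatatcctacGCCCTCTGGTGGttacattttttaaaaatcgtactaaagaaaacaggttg
LMBR1 intron 5, fold enrichment 8.86, match with 1 mismatch on the minus strand: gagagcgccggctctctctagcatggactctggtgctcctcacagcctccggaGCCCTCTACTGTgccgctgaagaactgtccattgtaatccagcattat

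The number of RAD21 peaks per Mb differed between the loci. The WNT6–PAX3 interval held 19.3 peaks per Mb, close to the 17.8 of chromosome 2, the SHH–LMBR1 interval 32.1 against 18.5 on chromosome 7, and the KCNJ16–SOX9 interval 12.5 against 36.7 on chromosome 17. Over the 3 intervals together the density was 19.6 peaks per Mb, and over the whole list 19.3 per Mb. In windows of the same length laid end to end along each chromosome, 22 of 62 windows of chromosome 2 held more than the 74 peaks of WNT6–PAX3 (median 59.5). On chromosome 7, 11 of 105 windows held more than the 48 peaks of SHH–LMBR1 (median 24), whereas on chromosome 17 only 2 of 33 windows held fewer than the 31 peaks of KCNJ16–SOX9 (median 83). With the 200 kb extension, the KCNJ16–SOX9 interval was thus sparse for its chromosome and the SHH–LMBR1 interval dense. With 1 library there was no spread between replicates against which to test these differences.

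**Figure D1:**
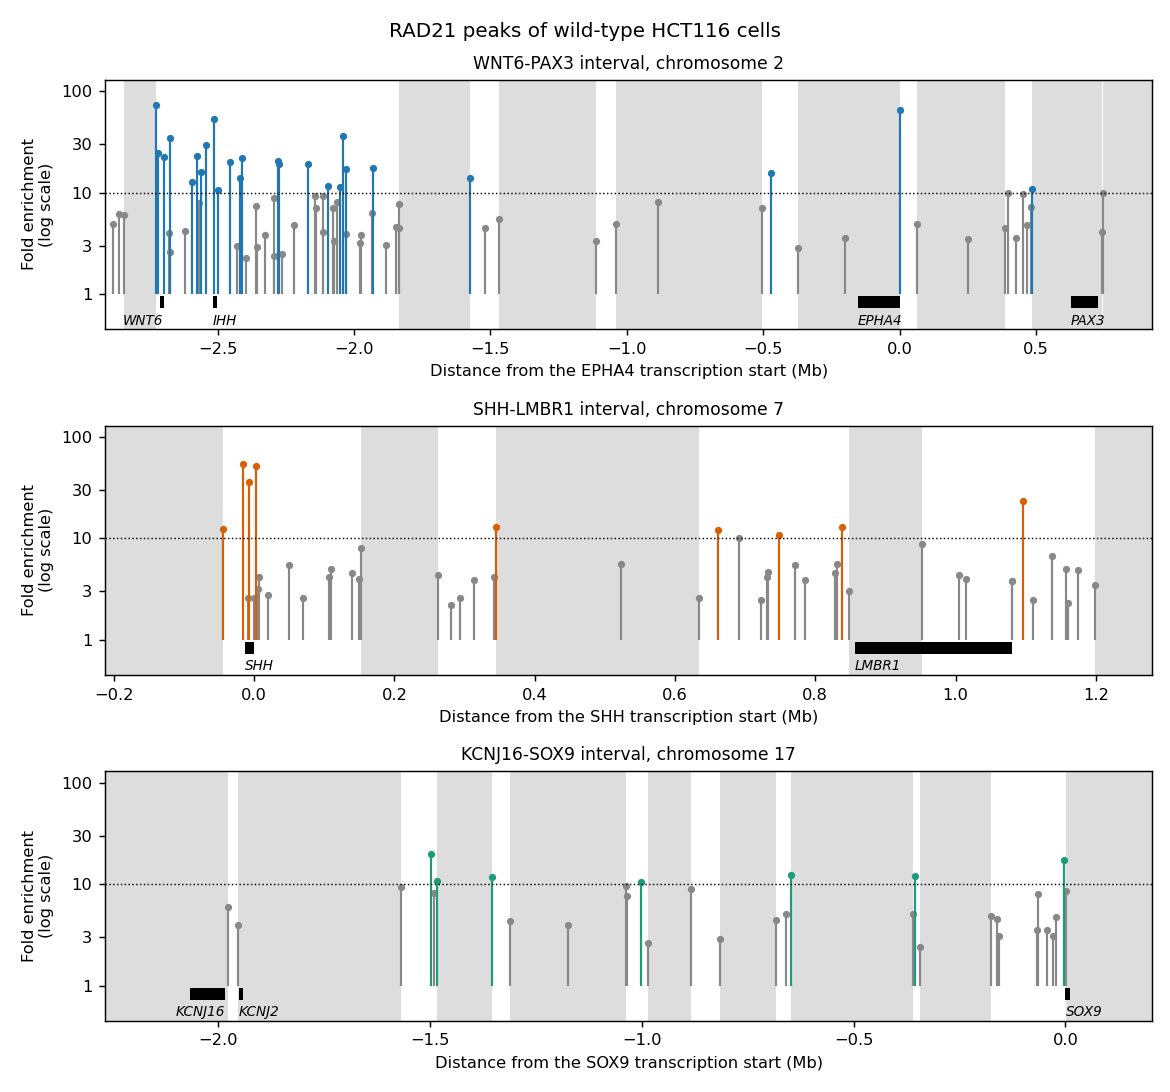
RAD21 peaks along the 3 intervals, with the distance from the transcription start of EPHA4, SHH or SOX9 in Mb on the horizontal axis and the fold enrichment at the summit on a log axis. Coloured stems have a fold enrichment of at least 10 (dotted line), grey stems a lower one, grey shading marks stretches of at least 100 kb between neighbouring summits, and black bars are the 9 genes. Strong peaks crowd around WNT6 and IHH and around SHH, EPHA4 carries an isolated one of 65.0, and shaded stretches cover most of the KCNJ16–SOX9 interval.

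Fold enrichment is the number of ChIP fragments at the summit over a local background, each with 1 added, as the peak caller MACS2 computes it. It ranged from 2.28 to 73.2 (median 7.16) in WNT6–PAX3, from 2.22 to 53.9 (median 4.37) in SHH–LMBR1 and from 2.43 to 19.8 (median 5.09) in KCNJ16–SOX9, and its median over the list was 5.58. The ranges overlapped widely, and the loci differed in their highest peaks. At least 50 was reached by 3 peaks of WNT6–PAX3 (4.05%), 2 of SHH–LMBR1 (4.17%) and 0 of KCNJ16–SOX9. Over the list 0.985% of the peaks reached it, so 0 of 31 lay near that share. A peak was called strong at a fold enrichment of at least 10, which 27.2% of all peaks reached. In WNT6–PAX3 25 peaks (33.8%, 95% Wilson interval 24.0 to 45.1%) were strong, in SHH–LMBR1 9 (18.8%, 10.2 to 31.9%) and in KCNJ16–SOX9 7 (22.6%, 11.4 to 39.8%). The 41 strong peaks made up 26.8% of the 153. These intervals cover counting error only, and peaks of 1 library are not replicates of a locus, so no locus was tested against the list. Just below the limit stood peaks of 9.97, 9.90 and 9.74 on chromosome 2 and a peak on chromosome 7 that missed 10 only in the fourth decimal, and the lowest strong peaks had 10.6, 10.7, 10.7 and 10.9.

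**Figure D2:**
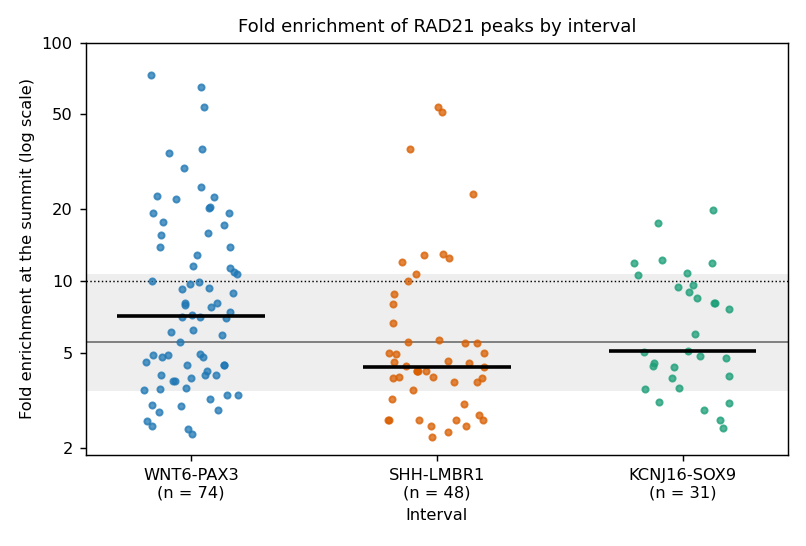
Fold enrichment at the summit (log axis) of each RAD21 peak in the 3 intervals, 1 point per peak with random horizontal spread. Black bars are the medians of 7.16, 4.37 and 5.09, the grey line and band are the median (5.58) and the middle 50% of the whole list, and the dotted line is the limit of 10. The 3 clouds overlap at low values, and the KCNJ16–SOX9 peaks stop at 19.8.

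WNT6 and IHH both encode secreted ligands, of the Wnt and hedgehog families, and RAD21 peaks were dense and strong around them. WNT6 (ENSG00000115596.4, chr2:218859805-218874233, plus strand) had no summit in its body. The highest peak of the 3 loci lay 11961 bp upstream of its start, at 218847844, between genes. It had 559 fragments at the summit (95% exact Poisson interval 514 to 607) over a background of 6.65 and a fold enrichment of 73.2, above 99.9% of the list. Another strong peak followed 6761 bp upstream of the start (24.8, 212 fragments) and 1 beyond the end of the gene (22.5, 213 fragments), so WNT6 lay between strong peaks on both sides. All such intervals cover counting error only, and fragments are not replicates.

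The 180 kb between WNT6 and IHH held 10 peaks, of which 6 were strong. These included 34.5 (309 fragments) in WNT10A, which encodes another Wnt ligand, 22.8 next to CRYBA2, a crystallin gene, and 29.7 in CFAP65, a gene of cilia and flagella. IHH (ENSG00000163501.7, chr2:219054424-219060921, minus strand), which controls cartilage growth in developing bones, held 1 summit, in intron 1 at 2730 bp from the start. It had 407 fragments (368 to 449) and a fold enrichment of 53.5, behind only those upstream of WNT6 and at EPHA4 in this interval. Its fragment interval did not overlap that of the peak upstream of WNT6. Within 100 kb of the start, 9 of 11 peaks were strong at IHH and 4 of 7 at WNT6.

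Beyond IHH, a gene-dense stretch with many peaks was followed by a gene desert with few. From IHH to the end of SLC4A3, an anion exchanger gene, 0.581 Mb held 30 protein-coding genes and 31 peaks (53.4 per Mb), 11 of them strong. The highest was 36.0 in intron 1 of ASIC4, of the acid-sensing channel family, with 478 fragments (436 to 523) over a raised background of 12.3. Peaks in NHEJ1, a gene of DNA end joining, reached 22.2 and 20.3, and in PTPRN, a phosphatase-like protein of secretory granules, 20.4 and 19.3. From the end of SLC4A3 to EPHA4, 1.78 Mb without a protein-coding gene held 15 peaks (8.45 per Mb), 3 of them strong at 17.7, 13.9 and 15.7.

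EPHA4 (ENSG00000116106.12, chr2:221418027-221574202, minus strand), a receptor for ephrin ligands that guides growing axons, held 1 summit over its 156 kb. This peak had a fold enrichment of 65.0 and 488 fragments (446 to 533). It was lower than the peak upstream of WNT6 in both values, with overlapping fragment intervals. The summit lay 1375 bp upstream of the canonical start and 523 bp inside the annotated end of the gene, where other transcripts begin. At 2539 bp the peak was wider than 99.8% of the list, and it was isolated, with the next summits 201 kb away, past the far end of the gene (3.53), and 62512 bp away on the upstream side (4.90).

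Between EPHA4 and PAX3, 626 kb without a protein-coding gene held 9 peaks from 3.48 to 10.97, of which 1 was strong. PAX3 (ENSG00000135903.20, chr2:222199887-222298998, minus strand), a transcription factor of neural crest and muscle precursors, held no summit, and no strong peak lay within 100 kb of its start. The nearest summits were 16648 bp upstream (4.06, 27 fragments) and 241539 bp downstream of the start (10.97, 100 fragments). The highest within 100 kb had a fold enrichment of 9.90. Within the chromosome 2 interval, WNT6, IHH and EPHA4 were therefore each next to a peak of over 50 and PAX3 was not.

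SHH (ENSG00000164690.8, chr7:155799980-155812463, minus strand), a secreted signal that patterns the limb and the neural tube, had the strongest peaks of its interval on both sides and inside it. Downstream, 15337 bp from the start, the peak at 155797126 had 410 fragments (371 to 452) and a fold enrichment of 53.9. Upstream, at 2990 bp, the peak at 155815453 had 439 fragments (399 to 482) and 51.3, so that the order by fold enrichment was the reverse of that by fragments, with overlapping intervals. Inside the gene, a peak in intron 2 had 246 fragments (216 to 279) and 35.8, below both in fragments. These 3 peaks carried 35.8% of the summed fold enrichment of the SHH–LMBR1 interval, which held 48 peaks. The 3 highest peaks carried 21.9% in WNT6–PAX3 (74 peaks) and 22.2% in KCNJ16–SOX9 (31 peaks). Such a share also depends on the number of peaks. The summit nearest the start itself was weak, with 17 fragments and 2.61 at 168 bp, in exon 1, and so was the third summit in the gene (2.61).

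From SHH to RNF32, a RING finger gene, 0.828 Mb without a protein-coding gene held 27 peaks (32.6 per Mb). This desert was thus denser in peaks than the one before EPHA4 (8.45 per Mb), and 4 of its peaks were strong, 51.3 upstream of SHH and then 12.9, 12.1 and 10.7. A peak of 13.0 lay in intron 3 of RNF32. On the far side of SHH the next strong peak was 12.5, in intron 16 of RBM33, an RNA-binding protein gene. Over the interval 25 of 48 peaks (52.1%) had the lowest background in the list, 5.90 fragments, as did 31.4% on the rest of chromosome 7.

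LMBR1 (ENSG00000105983.23, chr7:156668946-156893216, minus strand) encodes a membrane protein and is best known for the limb enhancer of SHH in intron 5. It held 4 summits and no strong peak. Intron 5 (chr7:156763796-156796388) held 1 summit, at 156764250, close to the end of the intron nearer SHH. This was the highest in the gene, with 80 fragments (63.4 to 99.6) and a fold enrichment of 8.86. The enhancer itself is not part of the annotation used, so its distance to this summit was not measured. Introns 4, 3 and 1 held 1 weak peak each (4.39, 3.94 and 3.77), and at the start of LMBR1 peaks of 3.77 lay on both sides, 509 bp upstream and 717 bp downstream. The strong peak nearest LMBR1 was 15910 bp upstream of its start, with 189 fragments (163 to 218) and a fold enrichment of 23.3. It was the fourth highest of the interval, and apart from the peaks around SHH no other exceeded 13.0.

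KCNJ16 and KCNJ2 encode inward-rectifier potassium channels, and both lay in long stretches without peaks. KCNJ16 (ENSG00000153822.15, chr17:70053429-70135608, plus strand) held no summit and had none before it in the interval. Its nearest summits were 254 kb upstream (2.67) and 69172 bp downstream of the canonical start (5.99). KCNJ2 (ENSG00000123700.5, chr17:70168673-70180044, plus strand) held no summit either. A peak of 3.93 (36 fragments, 25.2 to 49.8) lay 468 bp before the gene and 1327 bp before its canonical start, and downstream the next was 383 kb away (9.45). The strong peaks nearest to KCNJ2 were 600.3 kb upstream (11.3, outside the interval) and 453 kb downstream (19.8). Neither channel gene had a strong peak within 100 kb.

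SOX9 (ENSG00000125398.8, chr17:72121020-72126416, plus strand), a transcription factor of cartilage and testis, had a strong peak 2263 bp upstream of its start. It had 281 fragments (249 to 316) over a background of 15.2, a fold enrichment of 17.5. Another peak spanned the start, with its summit in intron 1 at 803 bp (81 fragments, 8.52). At 2469 bp it was, like the EPHA4 peak, wider than 99.8% of the list. No summit followed within the 200 kb after SOX9.

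The 1.94 Mb between KCNJ2 and SOX9 held no protein-coding gene and 28 peaks (14.4 per Mb), 7 of them strong. The strongest by fold enrichment, 19.8 at 70622580, had 174 fragments (149 to 202) over a background of 7.85, fewer fragments than the peak upstream of SOX9, whose background was higher. The others between them had 12.3, 11.9, 11.9, 10.9 and 10.6, the last in the noncoding gene CASC17, with 126 to 169 fragments. The strong summits lay, unevenly spaced, at 70622580, 70636732, 70767320, 71118281, 71473407, 71764727 and 72118757. The last of them was the peak just upstream of SOX9, and none lay within 100 kb of KCNJ2. All 7 were lower, in fold enrichment and in fragments, than the strongest peaks at WNT6, IHH, EPHA4 and SHH. The background at these summits was higher than at the other loci, with a median of 9.72 fragments against 8.10 on the rest of chromosome 17, and 0 of 31 peaks were at the floor of 5.90, against 16.99% there. A higher background lowers the fold enrichment of a given number of fragments, and its part in the lower values was not tested. By fragments, 9 of 31 peaks here and 8 of 48 on chromosome 7 were within the same number of top peaks as fold enrichment calls strong, a ranking chosen after the data were seen.

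**Figure D3:**
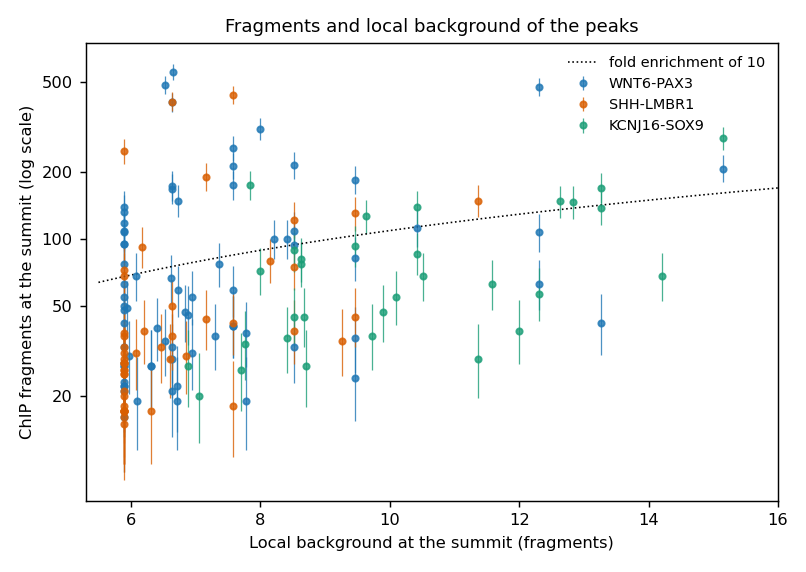
ChIP fragments at the summit (log axis) against local background (fragments) for the 153 peaks, with 95% exact Poisson intervals of the fragments as vertical lines, coloured by interval. The dotted curve is a fold enrichment of 10. Many SHH–LMBR1 peaks stand at the background floor of 5.90, whereas KCNJ16–SOX9 peaks lie to the right, with a median background of 9.72.

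A summit lay within 1 kb of the canonical start of SHH, LMBR1 and SOX9, 3 of the 9 genes, beside 34.1% of all 20046 protein-coding genes and 17 of the other 47 (36.2%) in the intervals. EPHA4 and KCNJ2 each had 1 within 1 kb of another annotated start. None of the peaks within 1 kb of these 3 canonical starts was strong, and the nearest strong peak upstream was 2990 bp away at SHH, 15910 bp at LMBR1 and 2263 bp at SOX9. Outside genes and over 1 kb from any annotated start lay 27.0% of summits in WNT6–PAX3, 39.6% in SHH–LMBR1 and 64.5% in KCNJ16–SOX9. Over the list this share was 33.5%.

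The exact CTCF consensus lay within 50 bp of the summit in 8, 2 and 6 peaks of the intervals (16 of 153, 10.5%), and in 11.4% of all peaks. In windows of the same length 5 kb to either side of all summits it occurred in 0.0510%. Among strong peaks it was found in 10 of 41 (24.4%), and in 22.4% of the strong peaks of the list. With 1 mismatch allowed it was found in 28 of the 41 (68.3%, list 62.4%) and in 34 of the 112 weaker peaks (30.4%, list 29.5%), against 0.762% of the windows 5 kb away. Pooled over the 3 loci, these shares lay near those of the list, but the loci differed. By locus, the consensus with at most 1 mismatch was present in 21 of 25 strong peaks of WNT6–PAX3. It was present in 3 of 9 in SHH–LMBR1 and in 4 of 7 in KCNJ16–SOX9. Among the weaker peaks it was present in 16 of 49 in WNT6–PAX3 (32.7%). In SHH–LMBR1 it was present in 6 of 39 weaker peaks (15.4%) and in KCNJ16–SOX9 in 12 of 24 (50%). No locus was tested against the list. The runs shown above give examples of each kind. The highest peaks of WNT6–PAX3 and SHH–LMBR1 had an exact match. The strong peaks in SHH, upstream of SOX9 and of 12.3 between KCNJ2 and SOX9 had no match.

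Strong peaks with matches on the plus and on the minus strand were interleaved along the WNT6–PAX3 interval. Of the 20 strong peaks with matches on 1 strand only, 12 had them on the plus and 8 on the minus strand. Of neighbouring pairs among them, 5 pointed towards each other, 6 away from each other and 8 the same way. Upstream of WNT6 the highest peak had a minus match and the next a plus match, so that they pointed away from each other. On chromosome 7 the peaks downstream and upstream of SHH both had a plus match. A match is a description of letters, and binding of CTCF was not measured.

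Long peak-free stretches were taken as distances of at least 100 kb between neighbouring summits, and 14% of all distances in the list were that long. There were 11 of 75 (14.7%) touching the WNT6–PAX3 interval, 6 of 49 (12.2%) SHH–LMBR1 and 10 of 32 (31.2%, 95% Wilson interval 18.0 to 48.6%) KCNJ16–SOX9. The intervals again cover counting error only, and neighbouring distances of 1 library are not replicates. Long stretches took 62.6%, 50.5% and 80.0% of the length of the intervals, with the parts of stretches beyond an interval left out, and 54.8% over the list. The median distance was 22.7 kb in WNT6–PAX3, 15.4 kb in SHH–LMBR1 and 23.1 kb in KCNJ16–SOX9, and 24.2 kb over the list.

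**Figure D4:**
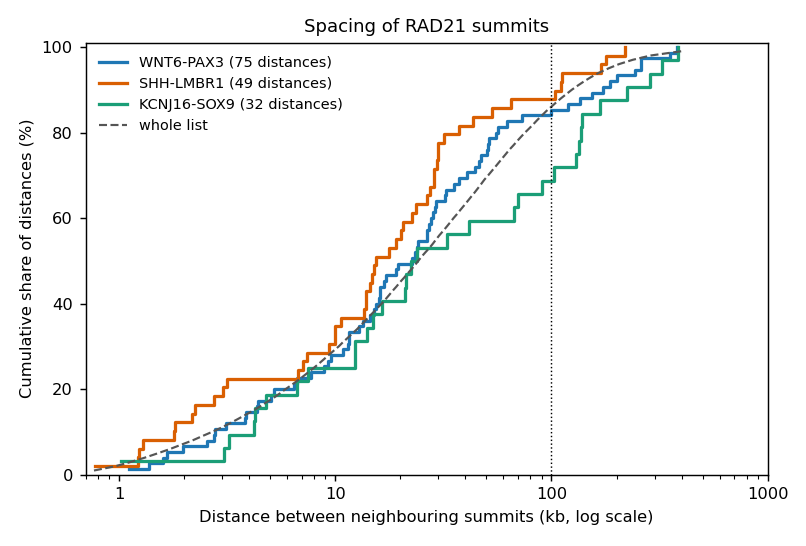
Cumulative share (%) of distances between neighbouring RAD21 summits up to a given length (kb, log axis) for the 3 intervals and for the whole list (dashed). The dotted line marks 100 kb, which 14.7% of the WNT6–PAX3, 12.2% of the SHH–LMBR1 and 31.2% of the KCNJ16–SOX9 distances reached, so that the KCNJ16–SOX9 curve lies lowest there.

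On chromosome 2, 8 of the 11 long stretches lay between SLC4A3 and PAX3. The longest, 381 kb in the desert between SLC4A3 and EPHA4, held no protein-coding gene and had no strong peak at either edge. Next came 355 kb from 220105252 to 220460450, between peaks of 5.54 and 3.33. The EPHA4 body lay in a stretch of 201 kb that ended at its peak of 65.0, and the whole of PAX3 in a stretch of 258 kb between peaks of 10.97 and 4.06. Upstream of WNT6, 120 kb across CYP27A1, a sterol hydroxylase gene, and PRKAG3, an AMPK subunit gene, ended at the peak of 73.2. The highest peaks at WNT6 and EPHA4 thus each stood at one edge of a long stretch, while the stretches of 381 and 355 kb had no strong edge. Those of 260, 258 and 244 kb each had a strong peak at one edge (13.9, 10.97 and 12.5, the last beyond the interval).

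The longest distance between strong peaks in WNT6–PAX3 was 1.10 Mb, in the desert before EPHA4, from 219997435 to 221100905, where 6 weaker peaks lay between. Another 0.505 Mb without a strong peak ran across PAX3 to a peak of 12.5 beyond the interval, with 2 weaker peaks between. In SHH–LMBR1 no distance of 0.5 Mb between strong peaks was found. Its long stretches were shorter, from 104 to 218 kb, and the longest lay beyond LMBR1 and overlapped part of UBE3C, a ubiquitin ligase gene. Between SHH and LMBR1 the longest was 178 kb, from the peak of 12.9 at 156156979 to 5.65 at 156334870, and a stretch of 104 kb ended at the summit in intron 5 of LMBR1.

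Of the distances in the list, 98.9% were shorter than the longest stretch of the 3 intervals, on chromosome 17. This stretch, 384 kb from 70168205 to 70552618, held KCNJ2. KCNJ16 lay whole within the stretch before it, 323 kb long between peaks of 2.67 and 5.99. From a peak of 11.3 before the interval to that of 19.8, 1.05 Mb across both channel genes held 6 peaks, all below 10, of which 3 lay in the interval. Towards SOX9 there were 7 further long stretches, of which the longest was 287 kb, from the peak of 12.3 at 71473407 to 5.04 at 71760493. After the summit in SOX9 a stretch of 224 kb followed. SOX9 therefore stood at the edge of a long stretch, with its strong peak 3066 bp before that edge, and the channel genes inside long stretches.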

How the data were processed

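RAD21 ChIP-seq of wild-type HCT116 cells was analysed from the deposited peak list of 1 library. The authors trimmed the reads with Trimmomatic 0.39, aligned them with Bowtie2 2.5.3 to GRCh38, removed duplicates with Picard and called peaks with MACS2 2.2.9.1 against Input at a q-value of 0.05, without pooling. Which Input served is not given in the sources used here. The deposited list gives the fold enrichment, a ratio, and the −log10 of the p-value and of the q-value at each summit. The score deposited by the authors was not used. No read totals were given. Fragments and local background were recovered from fold enrichment and p-value (Poisson, 1 added to both counts), within 0.05 of a whole number for all but 14 peaks. The recovery, the consensus search and the finding of long stretches were tested on simulated data.

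The 9 genes, intervals and lists were chosen with earlier results of these data known. Exons, introns and canonical starts came from GENCODE version 44, and sequences from GRCh38. Stretches were measured between neighbouring summits, at least 1 of them in the interval. Densities leave out assembly gaps. The peaks named were the 10 of highest fold enrichment in each interval (by range or value), those at the edges of long stretches, those nearest to each gene start and the highest in each gene. Peaks just below the limit of 10 were added to these. Other protein-coding genes are named where they hold such a peak or lie in a long stretch. UBE3C is named because it overlaps the longest stretch of SHH–LMBR1, and SLC4A3 and RNF32 as the ends of gene deserts. Alternatives covered q-value, fold, extension, length and consensus limits. No test was made, as there was 1 library per condition. The computations used pysam 0.24.0, samtools 1.23.1, scipy 1.17.1, pandas 2.3.3, numpy 2.4.6 and matplotlib 3.10.9 under Python 3.11.15.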

Additional observations from a re-analysis of the deposited data

How the results depend on the processing

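Of 95 values under alternatives, 78 were within 1.5 times the count reported. With a limit of 5 or 20 on fold enrichment, strong peaks numbered 79 or 16 in all, 44 or 12 in WNT6–PAX3, 18 or 4 in SHH–LMBR1 and 17 or 0 in KCNJ16–SOX9. With an extension of 500 kb in place of 200 kb, KCNJ16–SOX9 held 59 peaks in place of 31. Its strong peaks numbered 12 in place of 7, and those of SHH–LMBR1 17 in place of 9. Densities over these longer intervals were not computed, so the densities given hold for the 200 kb extension. Stretches of at least 200 kb numbered 11 in all, 6 in WNT6–PAX3, 1 in SHH–LMBR1 and 4 in KCNJ16–SOX9, and WNT6–PAX3 had 19 of at least 50 kb. With 1 mismatch, 28 strong peaks held the CTCF consensus. The peaks in all numbered from 128 (q-value of at most 1e-05) to 214 (500 kb). Ranked by −log10 q, 43 peaks were strong. Chosen after seeing the data, a ranking by fragments gave 44, and summits within 1 kb counted once gave 152 peaks. There were 27 long stretches at each q-value limit, but their edges and lengths can differ between limits. The peak at 220460450, at an edge of the 355 kb stretch, had a −log10 q of 4.84 and drops out at 1e-05. That stretch is then longer, so the order of the stretches by length can change. No paired analysis was possible because the series has 1 library for each condition. Depth was not given, and peaks below the authors' threshold are not in the list, so a stretch without peaks can hold weaker binding.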

Other observations

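The peaks at the start of EPHA4 and in SOX9 were the only ones of the 153 that were at least 2000 bp wide (1.31%), a width that 0.332% of the list reached. The median width was 461 bp in WNT6–PAX3, 431 bp in SHH–LMBR1 and 449 bp in KCNJ16–SOX9.

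Outside protein-coding genes, 15 of 74 summits lay in annotated noncoding genes in WNT6–PAX3, 12 of 48 in SHH–LMBR1 and 9 of 31 in KCNJ16–SOX9. In protein-coding genes lay 36, 14 and 1 summits of the same intervals, the last of them in SOX9. The matching shares over the list were not counted, so these numbers do not show a trait of the loci. In SHH–LMBR1, the strong peaks of 13.0, 12.1 and 10.7 lay in RNF32 or in the noncoding gene RNF32-DT.

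The local background was at least 1.5 times its floor at 18 of 31 summits (58.1%) in KCNJ16–SOX9, at 10 of 74 (13.5%) in WNT6–PAX3 and at 4 of 48 (8.33%) in SHH–LMBR1, and at 23.2% of the list. The fold enrichment was below 3 in 10 of 48 peaks of SHH–LMBR1 (20.8%), in 7 of 74 of WNT6–PAX3 (9.46%) and in 3 of 31 of KCNJ16–SOX9 (9.68%), and in 16.8% of the list.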
